A study of Mus musculus with 2 samples.

Results

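The cells described here are 221 brain endothelial cells, the cells that line blood vessels, chosen by the summed count of 6 genes of veins and inflamed vessels. They come from the CD45-negative library of a single-cell RNA sequencing study of NMOSD-like mice, a model of neuromyelitis optica spectrum disorder, in which the brain was taken at a time labelled 24 h. The mice were C57BL aged 8 to 13 weeks. The study has 2 libraries, CD45-negative and CD45-positive cells of the same kind of brain, with 1 library each, and both come from the model, so no library of an untreated brain enters any comparison here. The sources used here do not say how the model was made, how many mice were pooled or how the CD45 fractions were obtained.

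Members were selected on their UMIs, the molecule counts of a droplet library. A barcode needed at least 1000 UMIs and at most 20% mitochondrial UMIs, at least 20 UMIs of Cldn5, Flt1 and Adgrl4 per 10000, and fewer than 30 of the mural genes Vtn, Rgs5 and Abcc9 per 10000. It could hold at most 1 UMI of the arterial genes Gkn3, Bmx and Sema3g, and needed at least 6 UMIs of Vwf, Vcam1, Selp, Sele, Ackr1 and Lrg1 together. Of the 14524 barcodes of the library 12881 were kept, 1415 of these met the endothelial and mural limits, and 221 met the whole rule. That is 15.6% of the endothelial cells (95% exact binomial interval 13.8% to 17.6%) and 1.72% of the kept cells, out of 23186 barcodes in both libraries. Comparisons are with 949 other non-arterial endothelial cells, which had fewer than 6 UMIs of the 6 genes, and with 187 arterial cells, which had at least 2 arterial UMIs and fewer than 6 of the 6 genes. A further 58 cells with both kinds of UMI entered neither set.

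Because the rule chose these cells by their own transcripts and each group is 1 library, all values below are a description and no test was made. Levels are in CPM, a gene's UMIs summed over the set and scaled to a common total for all sets, and the range in brackets after a level, ratio or share is a 95% interval that covers counting error only. A gene is counted as higher or lower where its level differed at least 2-fold and the 2 sets together held at least 20 of its UMIs. Against the other non-arterial cells 256 of 11686 such genes were higher (2.19%) and 497 were lower (4.25%). Against arterial cells 577 of 9855 were higher (5.85%) and 370 were lower (3.75%). These shares are the background for every gene list below.

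Veins and venules are where leukocytes leave the blood in an inflamed tissue. E-selectin and P-selectin on the endothelial surface slow passing cells, chemokines held on the vessel wall activate their integrins, and VCAM-1 and ICAM-1 bind those integrins and arrest the cell. Brain capillaries instead carry most of the transporters of the blood-brain barrier, and a brain vessel changes its genes gradually from artery through capillary to vein. Many of the adhesion genes are switched on by the transcription factor NF-kB downstream of interleukin-1 and TNF, and acute-phase genes such as Lcn2 and Lrg1 respond in addition to STAT3 downstream of the interleukin-6 family.

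Endothelial markers that the rule did not use were summed as a description. Both sets had met the same endothelial limit and detection needed any UMI in a whole set, so this is no test of the label. All 12 of a list of such markers, among them Pecam1, Cdh5 and Emcn, were detected, with a summed level of 18601 CPM in the members and 18354 CPM in the other non-arterial cells. In the 102 members with 6 to 9 UMIs of the 6 genes, Ly6a and Ly6c1 of this list stood at 5343 and 4936 CPM and Pecam1 at 834 CPM. Cldn5, the main claudin of brain endothelium and a gene of the rule, stood at 4572 CPM (4467 to 4679) in the members, 4591 CPM (4531 to 4652) in the other non-arterial cells and 4542 CPM (4418 to 4669) in arterial cells. The venous or inflamed label did not rest on the same genes in all members. In 62 of the 221 the 6 genes were represented by Vwf alone, and how far the label fits these was not tested. By this choice they hold no UMI of Vcam1, Selp, Sele, Ackr1 or Lrg1, whereas the other non-arterial cells could hold some. In the Vwf-only cells the summed levels of Lcn2 and Icam1 lay under those of the other non-arterial cells while Il1r1 lay above, as given below. Nr2f2 also lay under, but with an interval that covers the level of the other non-arterial cells.

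Promoter sequences are shown for 4 genes that were high in the members and for Cxcl12, which was low, so that their start regions can be set side by side. Each is the 250 bases before the gene's start in RefSeq on GRCm38.p6, printed 5′ to 3′ on the gene's own strand. Capitals mark the letters of an NF-kB type motif, GGGNNNNNCC or its reverse complement, or of a STAT type motif, TTCNNNGAA, which is its own reverse complement. The first occurs in 45.8% and the second in 7.02% of the 32851 windows of this length, so a match is a description and not a site. RefSeq windows were found for 14 of 19 genes looked up. Of these windows 8, those of Lcn2, Lrg1 and Ackr1 among them, touch an exon in GENCODE M21 and are not printed.
Sele, E-selectin, chr1:164047984-164048233, plus strand: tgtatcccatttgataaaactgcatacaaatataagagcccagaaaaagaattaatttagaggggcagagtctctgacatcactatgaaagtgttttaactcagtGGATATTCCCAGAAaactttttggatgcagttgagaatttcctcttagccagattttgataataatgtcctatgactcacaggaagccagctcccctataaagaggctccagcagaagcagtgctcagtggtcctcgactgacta
Selp, P-selectin, chr1:164115014-164115263, plus strand: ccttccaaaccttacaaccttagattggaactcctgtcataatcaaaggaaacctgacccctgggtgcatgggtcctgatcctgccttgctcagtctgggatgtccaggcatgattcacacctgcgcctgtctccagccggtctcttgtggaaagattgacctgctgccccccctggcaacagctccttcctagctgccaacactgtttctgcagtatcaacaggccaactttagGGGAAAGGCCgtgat
F5, coagulation factor V, chr1:164151585-164151834, plus strand: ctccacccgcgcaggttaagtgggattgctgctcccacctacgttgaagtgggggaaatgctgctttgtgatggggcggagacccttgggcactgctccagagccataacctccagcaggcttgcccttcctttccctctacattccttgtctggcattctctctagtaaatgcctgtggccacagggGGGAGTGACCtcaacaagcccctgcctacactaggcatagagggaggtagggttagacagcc
Icam1, chr9:21015690-21015939, plus strand: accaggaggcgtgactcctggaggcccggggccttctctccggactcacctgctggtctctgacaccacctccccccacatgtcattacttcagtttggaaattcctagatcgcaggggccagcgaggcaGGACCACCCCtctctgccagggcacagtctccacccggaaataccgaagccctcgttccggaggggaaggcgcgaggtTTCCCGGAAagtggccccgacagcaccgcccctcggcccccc
Cxcl12, chr6:117168285-117168534, plus strand: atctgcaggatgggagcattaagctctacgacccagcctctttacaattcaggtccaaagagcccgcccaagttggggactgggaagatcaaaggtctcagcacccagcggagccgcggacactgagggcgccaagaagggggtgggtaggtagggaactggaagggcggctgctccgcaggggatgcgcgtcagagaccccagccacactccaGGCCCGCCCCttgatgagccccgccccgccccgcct
In Sele the motifs begin 145 and 140 bases before the start and overlap, and Icam1 has the first 120 and the second 42 bases before the start. The NF-kB type letters begin 62 bases before the start in F5, 36 in Cxcl12 and 15 in Selp. Of the 7 windows that touch no exon 6 hold these letters, and the 1 without them belongs to Il1r1, a high gene with 2 windows. Among the windows not printed, that of Ackr1, a high gene, and those of Spock2 and Mfsd2a, which were low, hold neither motif. That of Rgcc, also low, holds 4 NF-kB type matches. Those of Lcn2, Lrg1, Nr2f2 and Ptgs2, which were high, hold 1 each.

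The members held 1575129 UMIs in all, with a median of 6525 per cell (1070 to 21516) against 4578 in the other non-arterial and 5824 in the arterial cells. An absolute minimum of 6 UMIs is more easily met by a deep cell, so shares of cells are also given after every cell was thinned to 1000 UMIs. Median mitochondrial shares were close, at 1.94%, 2.03% and 1.71%. Scrublet called 22 members (9.95%) as doublets, compared with 5.97% of all kept barcodes. Without its calls 199 of the 221 members and 838 of the 949 other non-arterial cells remained. Many UMIs of another cell type's markers were held by 20 members (9.05%) and 89 other non-arterial cells (9.38%). Many meant at least 20 UMIs of a marker list, or at least 100 per 10000 for astrocytes and oligodendrocytes. The libraries shared 27 barcodes, 1 of them a member. Summed markers of other cell types stood at 1913, 3114 and 3471 CPM for oligodendrocytes in members, other non-arterial and arterial cells, at 2538, 2844 and 1096 CPM for astrocytes, at 45.7, 60.4 and 39.5 CPM for pericytes and at 35.6, 45.2 and 57.4 CPM for microglia. Smooth muscle, fibroblast, and monocyte and macrophage markers summed to 10.2, 12.7 and 12.1 CPM in the members and to 10.1, 13.4 and 13.8 CPM in the other non-arterial cells. T and NK cell markers held 5 UMIs in all members, with none of Cd3e, Cd3d or Cd3g. The part of these markers in the results was not tested, except where values without such barcodes are given. Single barcodes set some sums. One member held 2848 of the 3093 UMIs of Ttr, the main transcript of choroid plexus epithelium, and the choroid plexus sum was 161 CPM without it, and 255 CPM in the other non-arterial cells, or 173 CPM without their own top barcode. Another held 250 of 273 Cxcl2 UMIs, all 70 Cxcl3 UMIs and 41 UMIs of the neutrophil gene S100a9, beside 16 of Cldn5. The neutrophil marker sum was 5.10 CPM without the top barcode and 4.94 CPM in the other non-arterial cells without theirs, and the granule genes Ngp and Ltf were at 0 in both. Results for these genes are not read as properties of the members.

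The 6 genes of the rule were spread unevenly over the members. Their summed UMIs ran from 6 to 240 per cell with a median of 10, and 24 cells held 40 or more. Vwf, the von Willebrand factor that tethers platelets, was found in 199 members and was the largest of the 6 in 134. Vcam1 and Lrg1 were found in 102 each, Ackr1, a receptor that carries chemokines across venules, in 57, Sele in 29 and Selp in 18. The genes overlapped in the rarer cells: of the 57 cells with Ackr1, 47 also held Vcam1, and of the 18 with Selp, 15 held each of Ackr1, Vcam1 and Lrg1. In contrast 72 members had 1 of the 6 genes alone. Without Vwf 95 of the 221 would still have reached 6 UMIs, without Lrg1 183 and without Vcam1 194.

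**Figure D1:**
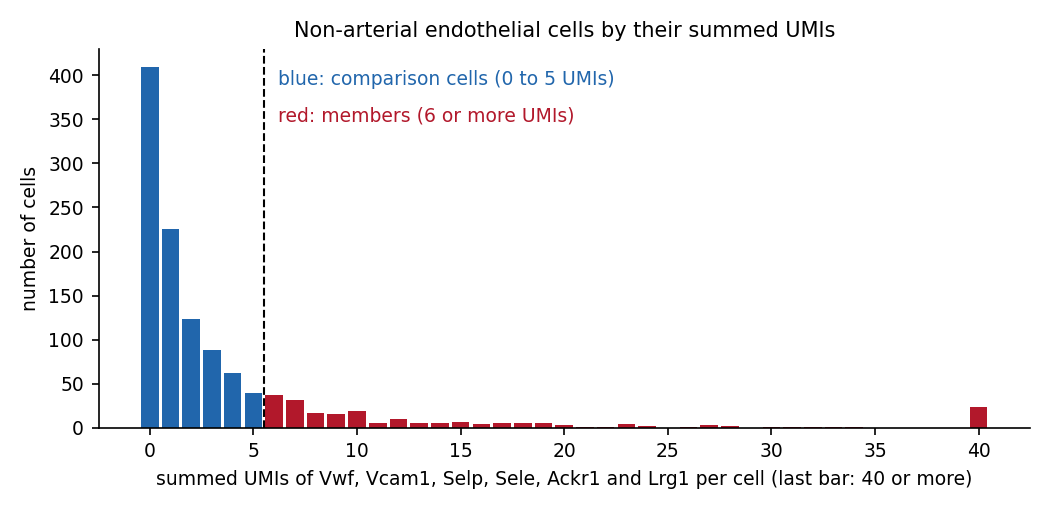
Number of non-arterial endothelial cells (y axis) by their summed UMIs of the 6 genes of the rule (x axis), blue for comparison cells and red for members, with the dashed line at the limit of 6 UMIs. There is no gap at the limit, with 40 cells at 5 UMIs and 37 at 6, and 24 members lie in the last bar.

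The levels of these genes follow from the choice and are given without further reading. Vwf stood at 909.8 CPM (863 to 958) in the members, 192 CPM in the other non-arterial cells and 190.1 CPM in arterial cells. Vcam1 stood at 707, 29.2 and 39.5 CPM, Lrg1 at 444, 15.8 and 11.7 CPM, and Ackr1 at 442, 4.11 and 0.897 CPM, in the same order. Vwf had the smallest ratio of the 6, 4.75-fold (4.37 to 5.16) over the other non-arterial cells. Sele stood at 130.1, 2.26 and 2.69 CPM. Selp stood at 83.2 and 0.616 CPM, and no UMI was found in arterial cells, where the floor of 3 UMIs equals 2.69 CPM. A single member held 39.7% of the Selp UMIs, 36.6% of those of Sele and 17.95% of those of Vcam1. On the mm10 genome the genes lie at chr6:125546774-125686679 for Vwf, chr3:116109949-116129688 for Vcam1, chr1:173331886-173333750 for Ackr1 and chr17:56119678-56122001 for Lrg1. Sele (chr1:164048234-164057677), Selp (chr1:164115264-164150026) and F5 (chr1:164151838-164220277), the coagulation factor described below, lie close together on chromosome 1.

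Genes of vein identity and cytokine sensing that the rule did not use were higher in the members. Of 17 such genes with enough UMIs, 8 were at least 2-fold higher and 1 was lower than in the other non-arterial cells, with a median log2 ratio of 0.98 against -0.03 for all genes. The lists share members, and Icam1, Lcn2, Il1r1 and Ch25h count in more than 1 of them, so the count is not one of vein identity alone. Nr2f2, the transcription factor that sets vein fate, stood at 155 CPM (136 to 176) in the members, 48.7 CPM (42.7 to 55.3) in the other non-arterial cells and 9.86 CPM (4.92 to 17.7) in arterial cells, 3.18-fold (2.65 to 3.82) above the second set. The members were thus highest and the arterial cells lowest, with intervals that do not meet. Il1r1, the signalling receptor of interleukin-1, stood at 159, 36.8 and 11.7 CPM and was 4.33-fold (3.56 to 5.28) higher than in the other non-arterial cells. Also past 2-fold in this list were Lcn2, Icam1, Ctsc (2.41-fold), Nrp2 (2.36-fold) and Ch25h (2.25-fold), the last being the enzyme that makes 25-hydroxycholesterol. Slc38a5, an amino acid transporter of brain veins and capillaries, was 1.72-fold higher than in the other non-arterial and 5.16-fold higher than in arterial cells. The list's low gene was Plvap, which forms the diaphragms of fenestrated vessels, with 1 UMI in the members and 75 in the other non-arterial cells.

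Against arterial cells the separation was wider, which follows in part from the opposite limits on arterial and venous UMIs that chose these sets. Of the venous list 11 of 16 genes were higher and 1 was lower, and of the arterial list none was higher and 14 of 17 were lower. The endothelin gene Edn1, of high arterial level, stood at 114 CPM in the members, 139 CPM in the other non-arterial cells and 509 CPM in arterial cells. Sox17, a transcription factor of arterial fate, stood at 167, 271 and 554 CPM. Arterial genes were also mostly lower than in the other non-arterial cells, in 14 of 17 by direction, with 3 of 17 at least 2-fold lower and 2 of 17 at least 2-fold higher. The higher ones were Mgp, an inhibitor of vessel calcification, at 336, 114 and 1519 CPM, of which 1 member held 25.1%, and Vegfc, a growth factor of vessels, at 10.8, 2.67 and 31.4 CPM. Vegfc rested on 17 UMIs in the members, and its log2 ratio was -0.0232 without those that held a UMI of Selp or Ackr1.

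**Figure D2:**
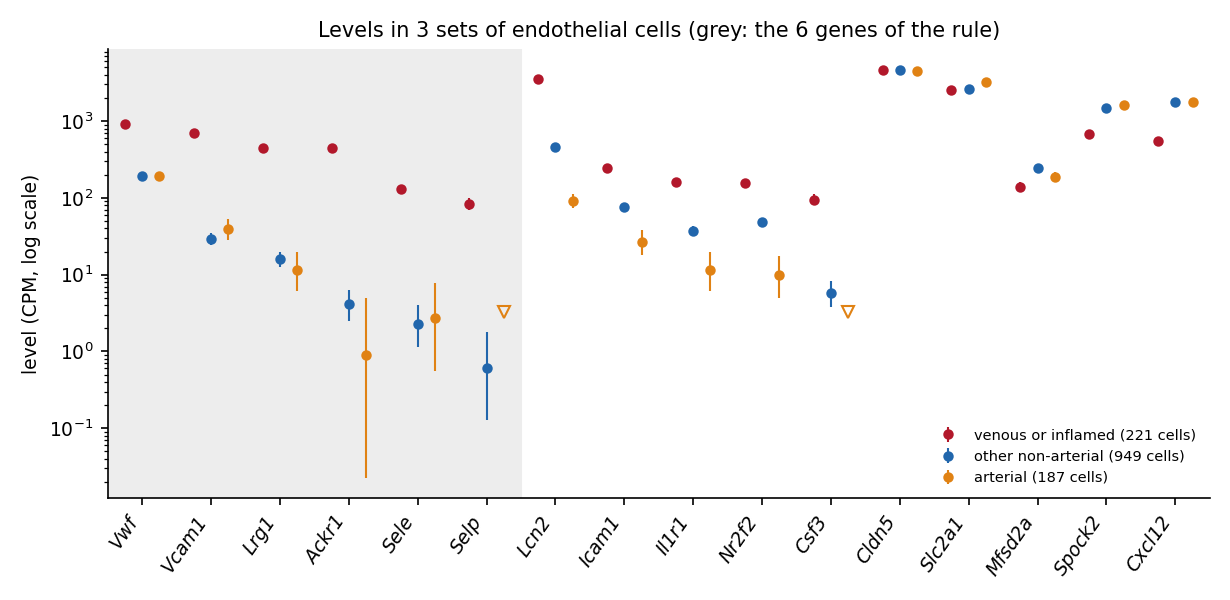
Levels in CPM on a log axis (y axis) of 16 genes (x axis) in the members, the other non-arterial and the arterial cells, with 95% counting intervals and open triangles for the upper limit where no UMI was found. The grey field holds the 6 genes of the rule, Lcn2 to Csf3 are highest in the members, Cldn5 is level, and Spock2 and Cxcl12 are lowest in them.

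Lcn2 held the most UMIs of the acute-phase and STAT3 genes in these cells. Lipocalin-2 is a secreted protein that binds bacterial siderophores and is made by endothelium and astrocytes in inflamed brain. It stood at 3496 CPM (3404 to 3589) in the members, 462 CPM (443 to 481) in the other non-arterial cells and 91.5 CPM (74.6 to 111) in arterial cells, 7.57-fold (7.20 to 7.95) above the other non-arterial and 38.2-fold above the arterial level. It was found in 61.5% of members and 26.3% of other non-arterial cells, or 40.7% and 14.6% after thinning. As a background for free RNA, 2185 oligodendrocytes were used, barcodes with at least 100 UMIs of myelin genes, Mag and Mog among them, per 10000 and at most 1 endothelial UMI. They had a Lcn2 UMI in 9.93% of cells at a median depth of 9538 UMIs. Of 18 acute-phase and STAT3 genes 5 were higher and none lower, with a median log2 ratio of 0.61. Besides Lcn2 and Ch25h these were Cebpb, a transcription factor of acute-phase genes, at 137 and 39.5 CPM, Timp1 at 49.5 and 18.5 CPM, and the ferroxidase Cp at 322 and 128 CPM. Socs3, the feedback inhibitor of STAT3, was 1.78-fold higher and did not reach 2-fold, and Serpina3n stood slightly lower, at a log2 ratio of -0.46.

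Among adhesion genes outside the rule Icam1 stood apart. ICAM-1 is the ligand of leukocyte beta-2 integrins. Its gene stood at 243 CPM (219 to 268) in the members, 76.0 CPM (68.5 to 84.2) in the other non-arterial cells and 26.9 CPM (18.2 to 38.4) in arterial cells, 3.19-fold (2.76 to 3.69) and 9.01-fold higher in the members. It was found in 35.3% of members and 16.4% of other non-arterial cells, in 13.1% and 4.74% after thinning, and in 0.458% of oligodendrocytes. It was the 1 gene of 19 in the adhesion and transmigration list past 2-fold, with none lower. Icam2, carried by resting endothelium, differed by 0.44 on the log2 scale, Pecam1 by 0.14, Esam by 0.17 and Jam2 by -0.10. No UMI of Madcam1, the addressin of gut venules, was found in any of the 3 sets.

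Chemokine and cytokine genes were mostly sparse. Of 9 chemokine genes with enough UMIs 3 were higher and 2 lower, and 2 of the higher ones, Cxcl2 and Cxcl3, are those of the single barcode above. The third was Cxcl16, the transmembrane ligand of CXCR6, at 15.9 and 5.14 CPM, from 25 UMIs. Cxcl1, a neutrophil attractant, was 1.97-fold higher, with 35.8% of its UMIs in 1 member, and Ccl2 held 20 UMIs. Of the lower ones, Ccl5 rested on 1 comparison cell, and Cxcl12 is taken up with the capillary genes. Csf3, granulocyte colony-stimulating factor, stood at 94.6 CPM (80.0 to 111) in the members and 5.75 CPM (3.82 to 8.32) in the other non-arterial cells, 16.4-fold (10.9 to 25.6) higher. It was not found in arterial cells, where the floor gives a level at least 35.2-fold higher in the members, and it came from 14 cells, of which 1 held 32.2% of the UMIs. No Il6 UMI was found in the members.

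The genes of the NF-kB list stood mostly higher. Against arterial cells 10 of 19 were at least 2-fold higher and none 2-fold lower, with a median log2 ratio of 1.16. Against the other non-arterial cells most differed by less than 2-fold. There 20 of the list's 21 genes were higher by direction and 5 by 2-fold, with none lower by 2-fold and a median log2 ratio of 0.83. Ptgs2, the inducible cyclooxygenase, stood at 134 CPM in the members and 16.8 CPM in the other non-arterial cells, 7.95-fold (6.13 to 10.4) higher, and stood at 90.8 CPM without the member that held 32.7% of its UMIs. The feedback regulators Nfkbiz and Tnfaip3 were 3.03-fold and 2.66-fold higher, and Traf1, an adaptor of TNF receptors, was 2.03-fold higher. Icam1 was the remaining gene past 2-fold. Csf1, the macrophage growth factor, stood at 125 and 63.3 CPM. Nfkbia, the inhibitor that holds NF-kB in the cytoplasm, was abundant at 897 and 971 CPM and was the 1 gene of the list that stood lower. Of 26 cytokine receptor genes Il1r1 alone passed 2-fold. The receptor subunits Il6st and Osmr of the interleukin-6 family were 1.52-fold and 1.37-fold higher, and Tnfrsf1a differed by 0.29 on the log2 scale.

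Most interferon genes differed little between the members and the other non-arterial cells. Of 25 interferon-stimulated genes 1 was higher and 1 lower, with a median log2 ratio of 0.12. Their summed levels were 7625 CPM in the members and 5707 CPM in the other non-arterial cells. Isg15 stood at 277 and 242 CPM, Ifit1 at 123 and 142 CPM, and the gene past 2-fold was Ifitm1 at 256 and 56.5 CPM, with 30.3% of its UMIs in 1 member. Of 18 MHC class I genes 17 stood higher than in the other non-arterial cells, by a median of 0.22 on the log2 scale, and 2 passed 2-fold. These were H2-Q6 (4.48-fold) and H2-Q7 (3.37-fold), near-identical copies whose reads may have been split between them, so their separate values are uncertain. B2m, the common light chain, stood at 1168, 1009.5 and 1381 CPM. Against arterial cells 17 of 25 interferon-stimulated genes stood lower, with 3 at least 2-fold lower, 1 at least 2-fold higher and a median log2 ratio of -0.25. Of 17 MHC class I genes 13 stood lower than in arterial cells, with none past 2-fold and a median log2 ratio of -0.08. MHC class II was nearly absent, with 2 UMIs of H2-Ab1 and 6 of Cd74 in all 221 cells.

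Several genes of clotting and its control were higher. Of 16 genes 5 were higher and 1 lower, with a median log2 ratio of 0.46. F5 stood at 20.3 CPM (13.9 to 28.7) in the members and 1.44 CPM (0.578 to 2.96) in the other non-arterial cells, from 32 and 7 UMIs. Ptgis, the prostacyclin synthase, was 6.35-fold higher, and Tfpi, the inhibitor of the tissue factor pathway, was 2.05-fold higher. Plat, the tissue plasminogen activator, stood lower by less than 2-fold, at 252, 393 and 483 CPM, and is not the 1 gene counted as lower. Nt5e passed 2-fold with 10 UMIs. F3, tissue factor itself, stood at 117 and 144 CPM. Of 12 complement genes 2 were higher and 2 lower by 2-fold and 9 stood lower by direction, with a median log2 ratio of -0.29. The alternative pathway factor Cfb was higher at 18.4 and 1.85 CPM from 29 UMIs. Those past 2-fold lower were C1qa and C1qb, subunits of C1q, with 3 UMIs each in the members. Cd59a, which blocks the membrane attack complex, stood lower at 199 and 317 CPM.

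Most matrix and glycolysis genes stood higher, by less than 2-fold. Of 23 basement membrane and matrix genes 16 stood higher and 3 passed 2-fold, with a median log2 ratio of 0.45. Col4a1 stood at 1158, 781 and 790.1 CPM and Fn1, fibronectin, at 1778, 1250.1 and 1052 CPM. Itga5, a subunit of the fibronectin receptor, was 2.25-fold higher, and Mmp15 and Lamb1 passed 2-fold with 30 and 18 UMIs. Of 17 hypoxia and glycolysis genes 13 stood higher and 4 lower, with 2 at least 2-fold higher, none 2-fold lower and a median log2 ratio of 0.34. Hif1a, the oxygen-regulated transcription factor, was 2.12-fold higher at 297 and 140.3 CPM. The other gene past 2-fold, Slc16a3, had a log2 ratio of -0.14 without the barcodes that held many UMIs of another cell type's markers. It was -0.35 with members chosen by 6 UMIs per 10000. The glycolytic enzymes Ldha, Pgk1 and Gapdh differed by 0.51, 0.62 and 0.45 on the log2 scale. Endothelial transcription factors gave no gene past 2-fold in either direction of 19, with Klf2 at 1359 and 1513 CPM.

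Outside the fixed lists the genes with the highest lower limits of the ratio included Bst1, a cell surface enzyme that makes cyclic ADP-ribose, at 32.4 CPM (24.1 to 42.6) in the members and 2.88 CPM (1.57 to 4.83) in the other non-arterial cells. No Bst1 UMI was found in arterial cells, so that its level was at least 12.03-fold higher in the members. Cd14, the co-receptor for bacterial lipopolysaccharide, stood at 35.6 CPM (26.9 to 46.2), 5.96 CPM (3.99 to 8.56) and 4.48 CPM (1.46 to 10.5) in the 3 sets. Trp53i11 was 5.04-fold higher. Gm5127 and Cysltr1, a leukotriene receptor, were 9.55-fold and 5.28-fold higher, but they overlap on opposite strands of the X chromosome and their reads may not have been told apart, and 1 member held 47.2% of the Cysltr1 UMIs. Each of these was low in absolute level.

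**Figure D3:**
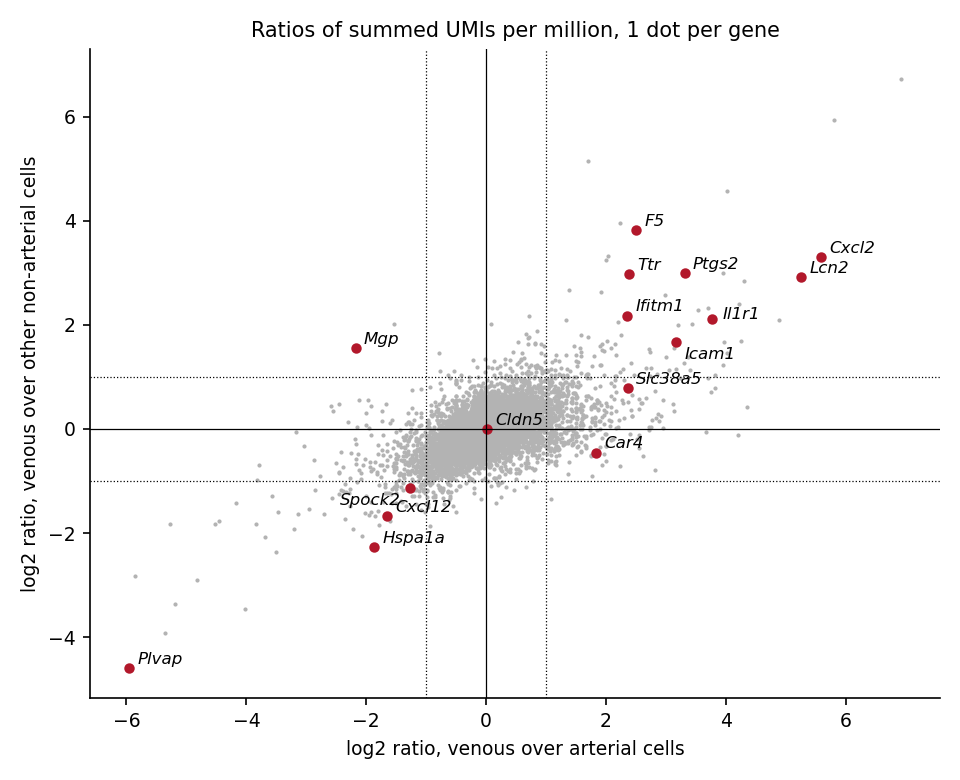
Each dot is a gene, with the log2 ratio of the members over arterial cells on the x axis and over the other non-arterial cells on the y axis, dotted lines at 2-fold, and the genes of the rule left out. The axes share the members' values, which by itself gives a diagonal trend. Lcn2, Icam1 and Il1r1 lie above 2-fold on both axes and Cxcl12 and Spock2 below it on both.

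Capillary genes were lower. All 17 genes of the capillary list stood lower than in the other non-arterial cells, 4 of them by 2-fold, with a median log2 ratio of -0.55. Cxcl12, the chemokine that brain capillaries and arteries make, stood at 556 CPM (519.9 to 594) in the members, 1785 CPM (1748 to 1823) in the other non-arterial cells and 1758 CPM (1681 to 1837) in arterial cells, 3.21-fold (2.99 to 3.44) lower than in the second set. It was found in 54.8% of members and 76.1% of the other non-arterial cells, although the members were deeper. Spock2, a matrix proteoglycan, stood at 681, 1496 and 1633 CPM, 2.20-fold (2.06 to 2.34) lower, and Rgcc at 191, 443 and 319 CPM, 2.32-fold (2.05 to 2.62) lower. Mfsd2a, the lysophosphatidylcholine transporter that keeps transcytosis low, was 1.76-fold (1.52 to 2.04) lower. Where members were chosen by 6 UMIs per 10000 in place of 6 UMIs, the log2 ratio of Cxcl12 was -1.04 and that of Spock2 -0.57, compared with -1.68 and -1.14.

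Barrier genes gave none past 2-fold in either of their lists. Of 22 barrier transporter genes 20 stood lower, with a median log2 ratio of -0.32. Slc2a1, the glucose transporter GLUT1, was nearly level at 2557, 2649.6 and 3191 CPM, whereas Slc7a5, the large neutral amino acid transporter, and Tfrc, the transferrin receptor, differed by -0.55 and -0.50 on the log2 scale. Of 15 junction genes 9 stood lower, with a median log2 ratio of -0.10. Ocln stood at 229.8 CPM (207 to 255) in the members and 228 CPM (215 to 242) in the other non-arterial cells, Tjp1 at 629.8 CPM (591 to 670.2) and 629 CPM (607 to 651), and Cdh5 at 407 CPM (376 to 439.7) and 435 CPM (416 to 454). In the list of Wnt signalling, the pathway that maintains the barrier, 15 of 19 genes stood lower and 1, Notum, passed 2-fold. Cell cycle genes were rare, and 5 of 12 were lower, with 2 UMIs of Mki67 and 2 of Top2a in the members.

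Some genes with low ratios were transcripts of other cell types. Trf stood at 249 and 679.9 CPM, Ptgds at 632 and 1466 CPM and Mag at 56.5 and 154 CPM, and all are abundant in oligodendrocytes. Without the barcodes that held many UMIs of another cell type's markers their log2 ratios were -0.42, -0.38 and -0.62, short of 2-fold, compared with -1.45, -1.21 and -1.44. The same removal left Lcn2 at 2.99, Icam1 at 1.77, Cxcl12 at -1.68 and Spock2 at -1.27. Hspa1a, a heat shock gene with a near-identical copy in Hspa1b, stood at 45.1 and 217 CPM, but 1 comparison cell held 73.1% of the UMIs of its set and the log2 ratio was -0.38 without it.

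**Figure D4:**
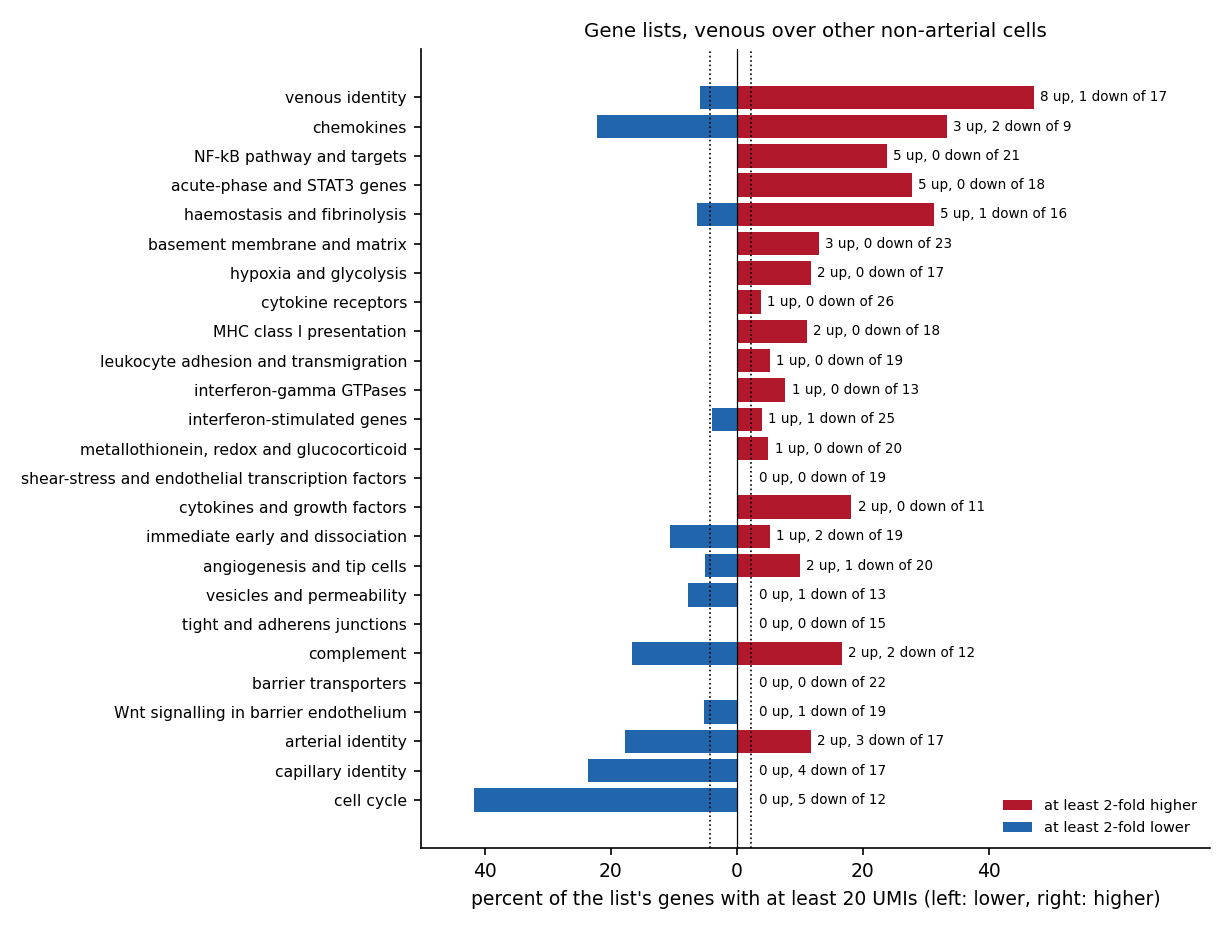
Share of each list's genes with at least 20 UMIs (x axis, percent) that were at least 2-fold higher (red, to the right) or lower (blue, to the left) in the members than in the other non-arterial cells, with lists ordered by median log2 ratio and dotted lines at the 2.19% and 4.25% of all genes. The venous identity list leads with 8 of 17 genes higher, among them Lcn2, Icam1, Il1r1 and Ch25h, which also count in acute-phase, NF-kB or cytokine receptor lists. Capillary identity has none higher and 4 of 17 lower.

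The members were not alike. A split made after seeing the data gave 60 members with a UMI of Selp or Ackr1, 99 with Vcam1, Sele or Lrg1 but neither of these, and 62 with Vwf alone, at median depths of 6713, 5974 and 7047.5 UMIs. Lcn2 stood at 8084 CPM (7819 to 8356), 2659 CPM (2541 to 2781) and 223 CPM (181 to 273) in this order, so that the Vwf-only cells were below the 462 CPM of the other non-arterial cells. Icam1 followed the same order at 486, 228 and 18.8 CPM, against 76.0 CPM in the other non-arterial cells. Il1r1 stood at 348, 103 and 61.1 CPM and Nr2f2 at 327, 122 and 35.3 CPM. Of these, Il1r1 in the Vwf-only cells remained above the 36.8 CPM of the other non-arterial cells, and Nr2f2 was under their 48.7 CPM. That Nr2f2 level rested on 15 UMIs, and its interval of 19.7 to 58.2 CPM covers 48.7 CPM. A Lcn2 UMI was found in 45.2% of the Vwf-only cells, a larger share than in the shallower other non-arterial cells. By the split these cells hold no UMI of Vcam1, Selp, Sele, Ackr1 or Lrg1, whereas the other non-arterial cells could hold some. Csf3 and Cd14 were highest in the first class, at 258, 50.3 and 2.35 CPM and at 101, 16.8 and 0 CPM, with 112 of the 149 Csf3 UMIs in it.

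Capillary genes were ordered the opposite way across the split. Cxcl12 stood at 152 CPM (118 to 194) in members with Selp or Ackr1, 554 CPM (501 to 612) in the middle class and 971 CPM (879.7 to 1069) in Vwf-only members, against 1785 CPM in the other non-arterial cells. Spock2 stood at 265, 689.9 and 1091 CPM and Rgcc at 53.0, 207 and 306 CPM. All 3 genes were thus lowest in the class with Selp or Ackr1. The lactate transporter Slc16a1, which was level over all members, stood at 157, 338 and 637 CPM, against 375 CPM in the other non-arterial and 143 CPM in arterial cells. Scgb3a1, a secreted protein named here after its values were seen, was highest in the Vwf-only members at 145, 682 and 1194 CPM, compared with 300 CPM in the other non-arterial and 378 CPM in arterial cells. Vwf stood at 919.8, 711 and 1234 CPM, where a high level in the last class follows from the rule, since these cells reached 6 UMIs with Vwf alone, and Cldn5 stood at 4193, 4546 and 5004 CPM. Astrocyte markers summed to 2379, 3536 and 1018 CPM and oligodendrocyte markers to 1621, 2388 and 1411 CPM over the 3 classes, and their part in these values was not tested. Of 8495 genes with at least 20 UMIs in the members, 226 were at least 2-fold higher and 515 at least 2-fold lower in the 60 cells than in the remaining members.

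**Figure D5:**
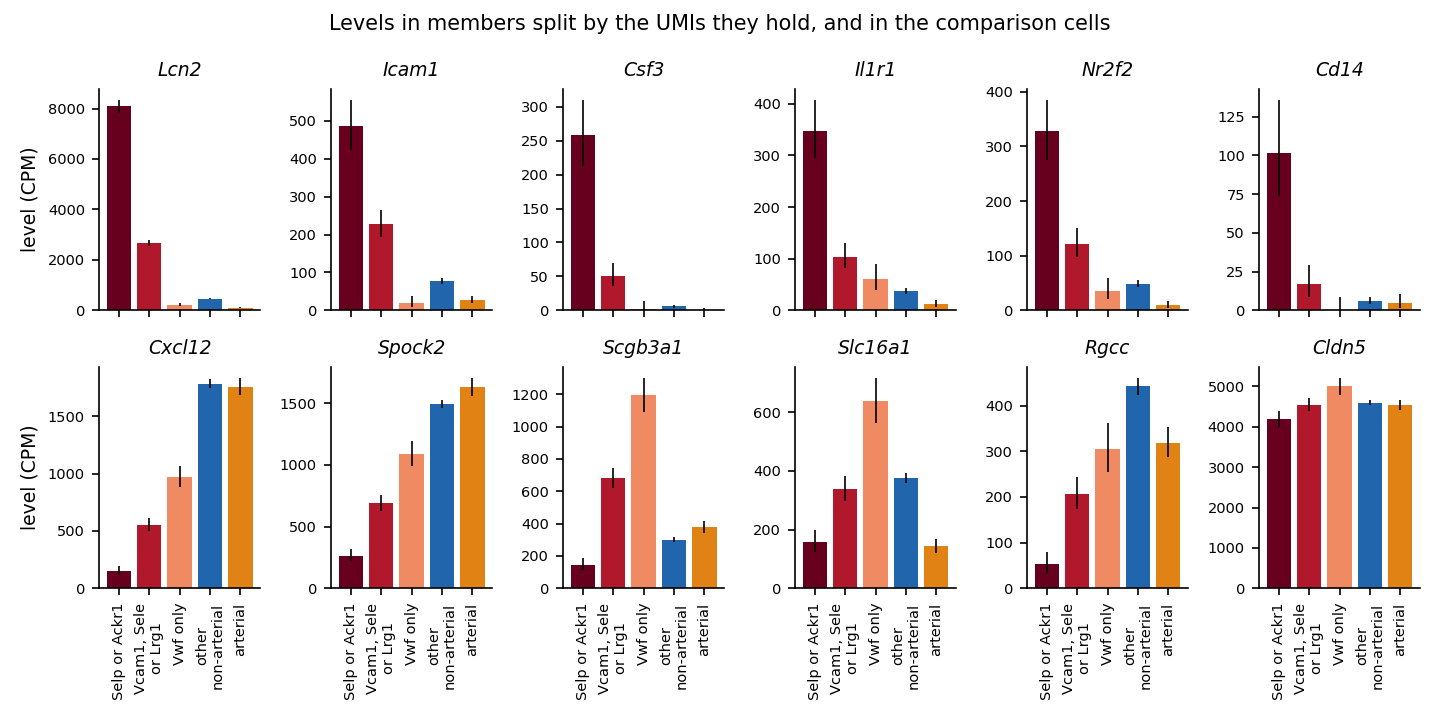
Levels in CPM (y axes, from 0, scaled per gene) of 12 genes in members with Selp or Ackr1, with Vcam1, Sele or Lrg1, and with Vwf only, and in the other non-arterial and arterial cells, with 95% counting intervals. Lcn2, Icam1, Csf3, Il1r1, Nr2f2 and Cd14 are highest in the first class and lowest of the 3 in the Vwf-only class, and Cxcl12, Spock2, Scgb3a1, Slc16a1 and Rgcc are ordered the other way.

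The members were also ordered by their summed UMIs of the 6 genes, which the rule used. The 102 members with 6 to 9 UMIs, the 73 with 10 to 19 and the 46 with 20 or more had Lcn2 at 941 CPM (869 to 1016), 1873 CPM (1757 to 1996) and 10364 CPM (10041 to 10694). Icam1 stood at 122, 113 and 638 CPM, and was highest in the last class. Cxcl12 stood at 846, 357 and 298 CPM, under the 1785 CPM of the other non-arterial cells in all 3 classes and past 2-fold from the first. Slc16a1 stood at 409, 502 and 114 CPM and was low in the last class alone. Median depth was 5923, 6644 and 7351.5 UMIs.

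Cells just inside and just outside the limit were set side by side. The 69 members with 6 or 7 UMIs and the 102 comparison cells with 4 or 5 had median depths of 5856 and 5937 UMIs. Vwf, which the rule used, stood at 669 CPM inside and 474 CPM outside. Lcn2 stood at 610 CPM inside and 776 CPM outside, Icam1 at 90.4 and 67.5 CPM, and Nr2f2 at 52.6 and 71.8 CPM, so that Lcn2 and Nr2f2 were no higher inside. Cxcl12 was lower inside, at 768 and 1284 CPM, and Spock2 stood at 894 and 1086 CPM. Slc2a1 stood at 2421 and 2495 CPM.

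The rule did not capture every cell with these transcripts. Of all UMIs of the kept barcodes the members held 74.4% for Selp, 76.5% for Sele, 65.5% for Ackr1, 49.1% for Lrg1 and 44.7% for Vwf, but 13.9% for Vcam1, of which 78.7% lay outside the endothelial cells. Of 53 kept barcodes with at least 3 UMIs of Selp and Ackr1, 39 were members, 10 missed the endothelial limit, 2 held arterial UMIs and 2 had fewer than 6 UMIs of the 6 genes. A UMI was found in 6.73% of oligodendrocytes for Vcam1, 1.24% for Vwf and 1.56% for Ackr1. Lcn2 was spread more widely, with 27.6% of its UMIs in the members and 57.7% outside the endothelial cells.

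The same rule applied to the CD45-positive library found 4 cells among 7768 kept barcodes, 16 of which met the endothelial and mural limits. These 4 cells were shallow, at 1229 to 2947 UMIs and 7275 in all. They held 16 UMIs of Vwf, 10 of Vcam1, 19 of Ackr1, 27 of Lrg1, 3 of Selp and 1 of Sele, and 17 of Cldn5 in 3 of the cells. Lcn2 was found in all 4 with 102 UMIs, or 14021 CPM (11432 to 17020). No UMI of Ptprc, the gene of CD45, was found in them, where the floor of 3 UMIs equals 412 CPM.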

How the data were processed

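Per the labels' protocols, minced brain was digested with enzymes and loaded for droplet sequencing of 3' ends (10x Genomics, v3). The deposited files hold unnormalised UMI counts of 32285 genes per barcode. The submitters' processing notes name Cell Ranger 6.1.2 and mm10. The sources used here do not give the annotation release or say whether doublets were removed. Isoforms are not told apart by 3' ends, and near-identical genes may share reads.

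The members, gene lists and comparisons were chosen with earlier results of these data known. Genes named are those of the rule, up to 4 per list with the largest ratios, list members described for their role, and the 15 with the highest lower limits and the 15 with the lowest upper limits of the ratio, or those with ratios high over both sets. UMIs were summed per set, with exact Poisson intervals for levels, exact conditional binomial intervals for ratios and Clopper-Pearson intervals for shares, all covering counting error only. With 1 library per group no p-value was computed. For a gene at 0 the floor was 3 UMIs per set, 1.90 CPM in the members. Depth per set is in the report. Intervals were tested on simulated Poisson counts, which hold no spread between cells, so the test does not cover sums set by single cells. Gene positions came from GENCODE M21, matched for 32158 gene IDs. Tools were scanpy 1.11.5 for Scrublet, then scipy 1.17.1, numpy 2.4.6, pandas 2.3.3 and matplotlib 3.10.9 under Python 3.11.15. A few genes of the lists are not reported here.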

Additional observations from a re-analysis of the deposited data

How the results depend on the processing

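The number of members followed the limit on the 6 genes. It was 119 at 10 or more UMIs and 383 at 6 or more UMIs per 10000, compared with 221. The second limit scales with depth, so a shallow cell meets it with fewer UMIs, and 209 of the 383 were among the 221. The number of genes at least 2-fold lower than in the other non-arterial cells, 497, was 1017 and 824 under these limits. Without the minimum of 20 UMIs per gene 1660 genes were higher and 3173 lower. The alternatives in this and the next sentence that name Selp, Ackr1 or other cell types were chosen after seeing the data. Members with a Selp or Ackr1 UMI gave 502 higher and 1503 lower genes, and their smaller total of UMIs leaves each gene less precise. Leaving out barcodes with many UMIs of other cell types, or members with a Selp or Ackr1 UMI, kept the counts within 1.5 times, as did a minimum of 2000 UMIs, a mitochondrial limit of 10%, a mural limit of 10 per 10000, removal of Scrublet calls (199 members, 283 higher and 396 lower genes), comparison cells with at most 1 of the 6 genes' UMIs, means over cells, scaling by the median of ratios, thinning to 1000 UMIs and, for the arterial comparison, at least 4 arterial UMIs. Thinning left 7590 genes with 20 UMIs, so that 7.51% were lower and 3.27% higher, compared with 4.25% and 2.19%.

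Of the 84 named genes past 2-fold, 10 changed sign in any alternative. At 6 per 10000 the log2 ratio was 0.93 for C1qa, -0.35 for Slc16a3 and -2.35 for Ttr. Ccl5 was 1.49 against cells with at most 1 UMI and 1.62 without the comparison cell that held most of it, and Gbp6 was -0.22 after thinning. Without barcodes rich in other types' markers Slc16a3 was -0.14 and Ttr -0.16. Without the top member of each gene Cxcl2 was -0.25, Ttr -0.66 and S100a9 -2.48. In members with Selp or Ackr1 Ttr was -0.47 and Scgb3a1 -1.05, and Vegfc was -0.0232 and Nqo1 -0.23 in the others. Ratios that kept their sign also changed in size. Over all members the log2 ratios were 1.67 for Icam1, 2.92 for Lcn2, -1.68 for Cxcl12 and -1.14 for Spock2. In members with Selp or Ackr1 they were 2.68, 4.13, -3.55 and -2.50. In the others they were 0.98, 1.92, -1.33 and -0.83, so that Icam1 and Spock2 fell short of 2-fold. The cause was not tested beyond these removals. Members without a UMI of 8 common markers of other cell types numbered 1, so that alternative was not run. No paired analysis was possible because each group has 1 library. A single library per group and the 3 UMI floor limit what can be said of genes with few UMIs.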
